A study of Mus musculus with 20 samples.

Results

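The phagocyte NADPH oxidase is the enzyme complex with which macrophages and neutrophils make superoxide. Its catalytic core sits in the membrane and joins gp91phox, encoded by Cybb, which carries electrons from NADPH to oxygen, to p22phox, encoded by Cyba, which stabilises it. At rest the organiser p47phox (Ncf1), the adaptor p40phox (Ncf4) and a Rac GTPase (Rac2 in blood cells) stay in the cytosol, and they join the core when the cell is activated. Inherited loss of several of these subunits causes chronic granulomatous disease, and superoxide reacts with the nitric oxide made by inducible nitric oxide synthase (iNOS, encoded by Nos2). The genes described here are Cybb, Cyba, Ncf1, Ncf4 and Rac2, chosen by symbol as subunits of this enzyme, with earlier results of these data known. They are 5 of the 56748 genes in both deposited count tables, and all 5 passed the minimum of 10 counts in total in both experiments, in which 18691 and 19569 genes were tested.

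RNA-seq of poly A-selected RNA was measured in 20 libraries of mouse macrophages from 2 experiments. In the first, labelled as bone marrow-derived macrophages (BMDM) of C57BL/6J mice aged 6 to 12 weeks and cultured with M-CSF (the study's methods give 8 to 12 weeks, and the strain B6.129P2-Nos2tm1Lau/J for the knockout mice), wildtype and iNOS knockout (KO) cells were unstimulated or stimulated with 50 ng/mL LPS and 30 ng/mL IFNγ for 48 h (3 libraries per group, replicates A, B and C). In the second, wildtype and Akr1a1 KO cells of the RAW264.7 macrophage-like line were unstimulated or stimulated for the same 48 h with LPS at 50 ng/mL and IFNγ at 10 ng/mL (2 libraries per group, replicates A and B). Akr1a1 encodes an aldo-keto reductase that also reduces S-nitroso-coenzyme A. The study's methods pool marrow by genotype, expand knockout RAW264.7 lines from single sorted cells and call the RAW264.7 libraries independent clones. The methods also describe the iNOS RNA-seq design as RAW264.7 cells, so the cell type of the first experiment is given here as its label. Nothing in the sources used here ties a library to an animal, so p-values measure the spread between these libraries, which may be technical. Replicate B of both unstimulated RAW264.7 groups is called stimulated in its title but unstimulated in its treatment field and library name, and it was taken as unstimulated.

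Total counts per library were 15072109 to 18878107 in the libraries labelled BMDM and 11876719 to 44583327 in RAW264.7. The targeted genes followed the labels. Stimulated libraries labelled BMDM held 10370 to 11530 CPM (counts scaled to the library's TMM-adjusted total) of Nos2 in wildtype and 871 to 912 CPM in iNOS KO. Akr1a1 was 427 to 675 CPM in wildtype RAW264.7. In Akr1a1 KO (A, B) it was 206 and 21.9 CPM unstimulated and 370 and 212 CPM stimulated, so these libraries differed in the targeted gene. In RAW264.7 Nos2 was 4155 to 8806 CPM in stimulated and 4.21 to 54.7 CPM in unstimulated libraries. Replicate B of the unstimulated groups was at 30.7 CPM in wildtype and 38.1 CPM in Akr1a1 KO. Of 8 macrophage markers (Csf1r, Adgre1, Cd68, Lyz2, Itgam, Fcgr1, Mertk, Cd14), all passed the count minimum in the libraries labelled BMDM, and 7 did in RAW264.7, where Mertk did not. Mertk was near 0 in the unstimulated libraries labelled BMDM as well, at no more than 0.352 CPM. Of 9 neutrophil markers, 3 (Ly6g, Ltf and Retnlg) had no counts in the libraries labelled BMDM, and 4 passed the minimum there. Among these 4, S100a8 reached 60.9 CPM, Csf3r 4.99 CPM and Camp 1.9 CPM. The summed level of the 9 was at most 64.7 CPM there, while RAW264.7 libraries reached 429 CPM, in stimulated Akr1a1 KO. Of 5 lymphocyte markers Cd79a alone passed the minimum, at no more than 0.372 CPM in either experiment. The summed level of 5 fibroblast markers was at most 15.8 CPM. That of 4 dendritic cell markers was 91.9 to 105 CPM in stimulated wildtype and 27.0 to 29.5 CPM in stimulated iNOS KO, almost all of it Itgax, an integrin that macrophages also express, while Flt3 and Zbtb46 were at most 0.0693 and 2.15 CPM. Replicate B of stimulated iNOS KO stood apart from the other libraries labelled BMDM, with a standard deviation from its group mean of 0.257 on the log2 scale over genes against 0.0729 to 0.164 in the other 11 libraries. Calls on the oxidase genes that it changes are given with and without it.

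In TMM-scaled CPM, stimulation raised all 5 oxidase genes in both genotypes of the libraries labelled BMDM. The rise differed in size between wildtype and iNOS KO for 4 of them. Cybb rose most, 4.66-fold in wildtype and 7.67-fold in iNOS KO. Ncf4 went the other way, with a 3.31-fold rise in wildtype and a 1.99-fold rise in iNOS KO, which left it at 0.497 of the wildtype level in stimulated iNOS KO cells. A gene was called at a Benjamini-Hochberg adjusted p under 0.05 in edgeR's quasi-likelihood test over all genes. Stimulation called 32.4% of all tested genes higher and 28.5% lower in wildtype, and 27.3% higher and 24.6% lower in iNOS KO, so 5 of 5 higher stands against a large background in both. The median log2 fold change of the 5 was 1.12 in wildtype and 1.11 in iNOS KO, beside 0.071 and -0.00032 over all tested genes. The plot of CPM by library in the libraries labelled BMDM shows these values.

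**Figure D1:**
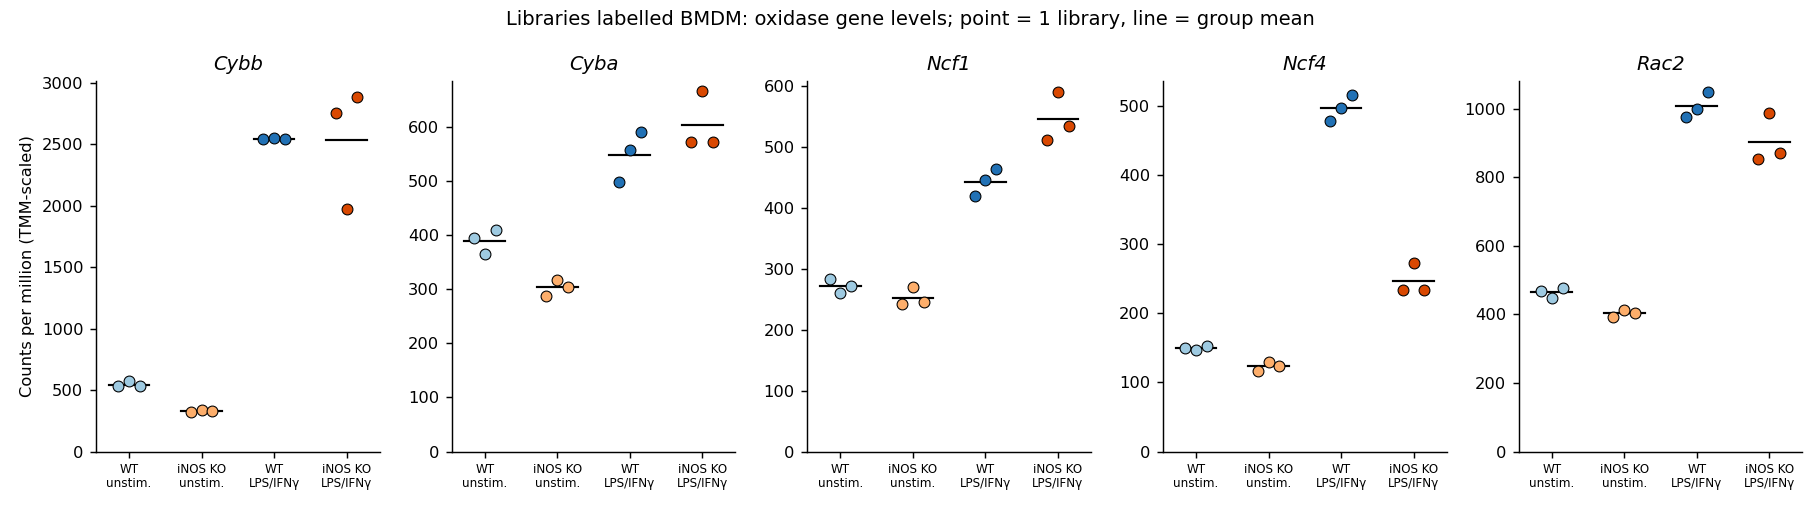
CPM (TMM-scaled, linear axes from 0) of the 5 oxidase genes in the libraries labelled BMDM; each point is 1 library and each line a group mean (n = 3). All 5 genes are higher in stimulated than in unstimulated libraries, and Ncf4 is the gene whose stimulated iNOS KO libraries (234 to 272 CPM) lie far below the stimulated wildtype ones (478 to 516 CPM).

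Cybb encodes gp91phox, the catalytic subunit, and is listed on chromosome X at 9301491 to 9354010 on the minus strand (ENSMUSG00000015340). Its levels were 534, 573 and 531 CPM in unstimulated wildtype (A, B, C) and 326, 339 and 327 CPM in unstimulated iNOS KO. They were 2541, 2549 and 2542 CPM in stimulated wildtype and 2751, 1974 and 2887 CPM in stimulated iNOS KO. The unstimulated groups did not overlap, whereas the stimulated iNOS KO libraries lay on both sides of the wildtype ones because replicate B was low. The log2 fold change with stimulation was 2.22 ± 0.10 (SE) in wildtype (adjusted p = 5.3e-12) and 2.94 ± 0.11 in iNOS KO (adjusted p = 3.2e-13). Unstimulated iNOS KO differed from wildtype by -0.72 ± 0.099 on the log2 scale, a ratio of 0.606 (adjusted p = 0.000158). In stimulated cells the difference was -0.0038 ± 0.098 (95% interval -0.21 to 0.20, adjusted p = 0.98). Without replicate B of stimulated iNOS KO it was 0.15 and passed the threshold (adjusted p = 0.0119), so this library decides whether Cybb is called.

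Cyba encodes p22phox, the partner that gp91phox needs to be stable, and is listed on chromosome 8 at 123151515 to 123159669 on the minus strand (ENSMUSG00000006519). It was 395, 366 and 410 CPM in unstimulated wildtype and 288, 318 and 304 CPM in unstimulated iNOS KO, with no overlap. It was 498, 557 and 590 CPM in stimulated wildtype and 572, 666 and 571 CPM in stimulated iNOS KO, and these ranges overlapped. Its rise with stimulation was 0.49 ± 0.078 in wildtype, the smallest of the 5 genes there (adjusted p = 3.2e-05) and 0.99 ± 0.078 in iNOS KO (adjusted p = 1.3e-08). Unstimulated iNOS KO differed from wildtype by -0.36 ± 0.078 (adjusted p = 0.0081), a call that was lost without unstimulated iNOS KO replicate A (adjusted p = 0.0602) or unstimulated wildtype replicate C (adjusted p = 0.0593). Stimulated iNOS KO differed from wildtype by 0.14 ± 0.078 (95% interval -0.028 to 0.30, adjusted p = 0.16).

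Ncf1 encodes p47phox, the organiser that is phosphorylated on activation and carries the cytosolic subunits to the membrane, and is listed on chromosome 5 at 134248907 to 134258479 on the minus strand (ENSMUSG00000015950). It overlaps Gtf2ird2, whose counts were 2.06% to 5.42% of those of Ncf1 in the libraries labelled BMDM, and the strand setting of the counting is not given in the sources used here. Its levels were 284, 261 and 272 CPM in unstimulated wildtype and 242, 271 and 245 CPM in unstimulated iNOS KO, which overlapped. They were 419, 446 and 464 CPM in stimulated wildtype and 512, 591 and 536 CPM in stimulated iNOS KO. Here every iNOS KO library was above every wildtype library, the reverse of the order seen for Ncf4. The stimulated difference was 0.30 ± 0.069 on the log2 scale (adjusted p = 0.0017), and the unstimulated one was -0.11 ± 0.070 (95% interval -0.25 to 0.042, adjusted p = 0.49). Stimulation raised Ncf1 by 0.70 ± 0.070 in wildtype (adjusted p = 1.3e-07) and by 1.11 ± 0.070 in iNOS KO (adjusted p = 7.0e-10).

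Ncf4 encodes p40phox, which binds, through its PX domain, the phosphatidylinositol 3-phosphate of phagosome membranes, and is listed on chromosome 15 at 78129001 to 78146780 on the plus strand (ENSMUSG00000071715). It was 150.0, 147 and 153 CPM in unstimulated wildtype and 117.0, 130 and 124 CPM in unstimulated iNOS KO. After stimulation it was 478, 496 and 516 CPM in wildtype and 234, 272 and 234 CPM in iNOS KO. The genotypes did not overlap in either state, and the gap widened with stimulation. Stimulated iNOS KO differed from wildtype by -1.01 ± 0.069 (95% interval -1.16 to -0.86, adjusted p = 2.6e-09). The smaller unstimulated difference of -0.28 ± 0.069 (adjusted p = 0.0232) was fragile: it was lost, with an adjusted p of 0.0570 to 0.139, without unstimulated iNOS KO replicate A or C or any 1 of the 3 unstimulated wildtype replicates. Stimulation raised Ncf4 by 1.73 ± 0.071 in wildtype (adjusted p = 1.0e-12) and by 0.995 ± 0.070 in iNOS KO (adjusted p = 2.7e-09).

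Rac2 encodes the Rac GTPase of blood cells, which switches the assembled complex on when it holds GTP, and is listed on chromosome 15 at 78443367 to 78456983 on the minus strand (ENSMUSG00000033220). It was 469, 448 and 477 CPM in unstimulated wildtype and 394, 413 and 406 CPM in unstimulated iNOS KO. It was 975, 998 and 1048 CPM in stimulated wildtype and 854, 989 and 869 CPM in stimulated iNOS KO, where replicate B was the one within the wildtype range. It rose by 1.12 ± 0.063 in wildtype (adjusted p = 7.9e-11) and by 1.16 ± 0.063 in iNOS KO (adjusted p = 9.4e-11). The iNOS KO difference was -0.20 ± 0.063 in unstimulated cells (adjusted p = 0.0774; 0.00337 when the unstimulated groups were fitted alone, and 0.00304 without replicate B of stimulated iNOS KO, which enters through the shared spread) and -0.16 ± 0.062 in stimulated cells (adjusted p = 0.0502). The stimulated value sat at the threshold: it passed in DESeq2 (adjusted p = 0.0381), with edgeR's filterByExpr (adjusted p = 0.0123) and without replicate B of stimulated iNOS KO, where it was -0.22 (adjusted p = 0.000502), and it also passed without stimulated wildtype replicate A (adjusted p = 0.0444).

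In unstimulated cells 3 of the 5 genes were lower in iNOS KO than in wildtype (Cybb, Cyba and Ncf4) and none was higher, beside 4.09% of all tested genes lower and 1.88% higher. In stimulated cells 1 was lower (Ncf4) and 1 higher (Ncf1), beside 24.2% of all tested genes in each direction. Nos2 itself was at 1.25 to 1.53 CPM in unstimulated wildtype and had no counts in unstimulated iNOS KO. The summed level of the 8 macrophage markers also differed between these groups, at 5490 to 5871 CPM in unstimulated iNOS KO against 7849 to 8195 CPM in unstimulated wildtype, and at 12251 to 13046 CPM in stimulated iNOS KO against 7771 to 8725 CPM in stimulated wildtype. Of the 8, 5 were lower and 0 higher in unstimulated iNOS KO, while in the stimulated state iNOS KO had 3 of them higher and 3 lower (median 0.046). The higher ones there were Lyz2 (0.98), Cd14 (0.81) and Fcgr1 (1.81), of which Lyz2 and Cd14 carried most of the sum, and the lower ones were Adgre1 (-0.62), Cd68 (-0.27) and Mertk (-2.69). The dendritic cell markers were split as well: of 3 tested, 1 was called higher and 1 lower in stimulated iNOS KO (median 1.02). The lower one was Itgax, with a difference of -1.89 ± 0.097 (adjusted p = 6.5e-11). In bulk RNA, fewer cells of a type and less RNA per cell cannot be told apart, and the part of the marker levels in the oxidase differences was not tested.

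The interaction, which is the difference between the stimulation response of iNOS KO and that of wildtype, was positive for Cybb (0.72 ± 0.14, adjusted p = 0.00058), Cyba (0.50 ± 0.11, adjusted p = 0.0018) and Ncf1 (0.41 ± 0.098, adjusted p = 0.0036). It was negative for Ncf4 (-0.73 ± 0.098, adjusted p = 1.5e-05). Over all tested genes 20% had a called positive and 15.4% a called negative interaction, so 3 of 5 and 1 of 5 were called in these directions. For Rac2 it was 0.045 ± 0.088 (95% interval -0.14 to 0.23, adjusted p = 0.76). The membrane pair and the organiser responded more strongly in iNOS KO, and the adaptor less strongly. For Cybb and Cyba the larger response began from a lower unstimulated level, and the stimulated levels of the genotypes were not called different. For Ncf4 and Ncf1 the stimulated levels themselves were called different, in opposite directions.

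**Figure D2:**
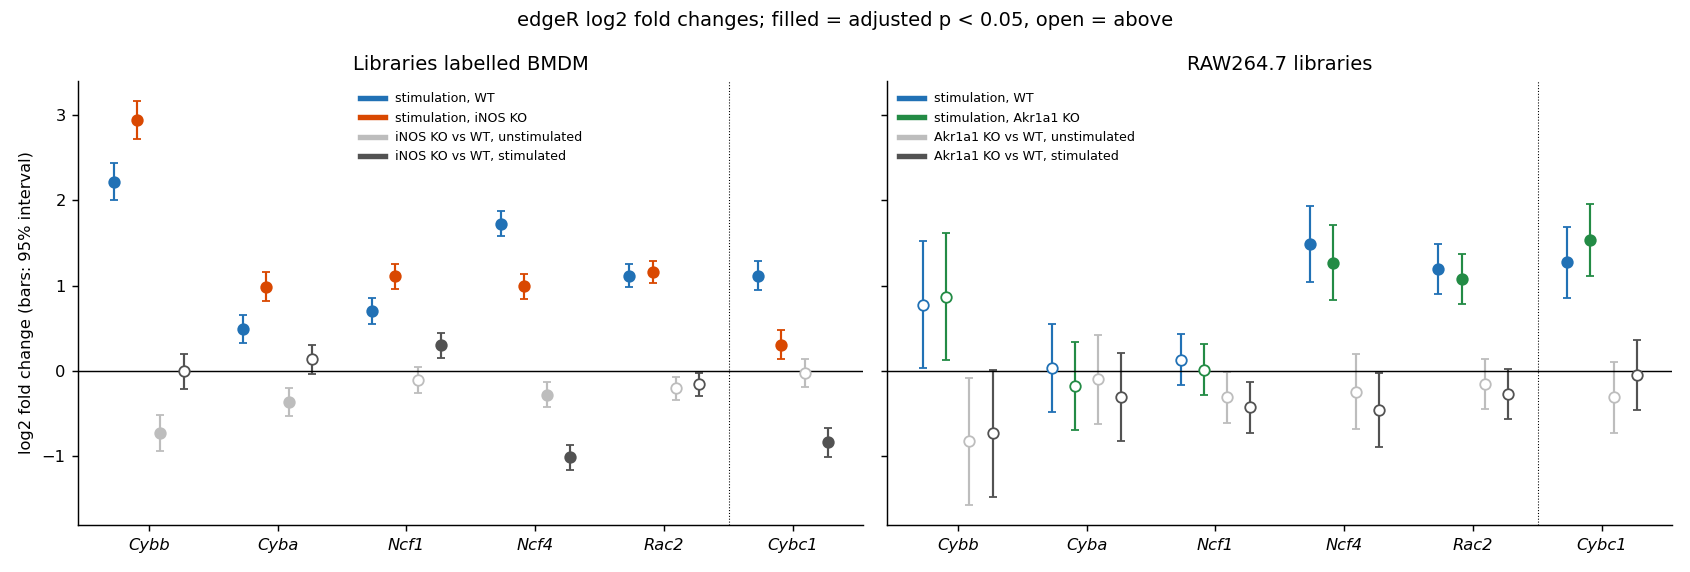
edgeR log2 fold changes with 95% intervals for the 5 oxidase genes and, right of the dotted line, for Cybc1, on the left for the libraries labelled BMDM (n = 3 per group) and on the right for RAW264.7 (n = 2 per group); filled points have an adjusted p under 0.05. On the left Ncf4 is the member with a called drop in stimulated iNOS KO, -1.01, and on the right all genotype comparisons are open.

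Cybc1, encoding a chaperone that gp91phox and p22phox need to reach the membrane as a pair, was 86.6, 86.6 and 89.1 CPM in stimulated wildtype and 46.4, 50.4 and 50.4 CPM in stimulated iNOS KO. Like Ncf4, Cybc1 was lower in stimulated iNOS KO with no overlap, at a difference of -0.83 ± 0.079 (adjusted p = 1.4e-07), and its interaction was -0.81 ± 0.11 (adjusted p = 2.1e-05). Its unstimulated levels did not separate the genotypes (-0.023 ± 0.080, adjusted p = 0.94).

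Levels of different genes were compared per length, as TPM, in which each count is divided by the listed gene length before it is scaled to the library. In unstimulated wildtype the order was Cyba (1293 to 1407 TPM), Rac2 (530.2 to 553 TPM), Cybb (326 to 363 TPM), and then Ncf1 (262 to 283 TPM) and Ncf4 (267 to 271 TPM), whose ranges overlapped. Stimulation moved Cybb to 1118 to 1198 TPM and Ncf4 to 647 to 652 TPM in wildtype, while Ncf1 went to 313 to 324 TPM. Cyba was 1313 to 1452 TPM in stimulated wildtype, which overlapped its unstimulated range. Its rise in wildtype was thus seen in scaled CPM and not in TPM. In iNOS KO Cyba was 1076 to 1155 TPM in unstimulated and 1474 to 1683 TPM in stimulated libraries. Of the summed TPM of the 5 genes, Cyba took 48.9% ± 1.18 (SD, n = 3) in unstimulated and 31.8% ± 1.36 in stimulated wildtype, and Cybb took 12.3% ± 0.954 and 26.5% ± 1.15. The pair of membrane genes, made in unequal amounts of RNA before stimulation, came closer: the TPM ratio of Cybb to Cyba was 0.251 ± 0.0257 in unstimulated and 0.834 ± 0.0724 in stimulated wildtype. In iNOS KO the same ratio was 0.195 ± 0.00627 and 0.765 ± 0.204, with replicate B lowest at 0.530.

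The ratio that separated the stimulated genotypes most plainly was that of the adaptor Ncf4 to the organiser Ncf1. It was 0.959 to 1.02 in unstimulated wildtype and 0.869 to 0.919 in unstimulated iNOS KO. After stimulation it was 2.015 to 2.07 in wildtype and 0.792 to 0.834 in iNOS KO. The wildtype ratio was higher after stimulation in every library, while the iNOS KO ratio was lower in every library, and replicate B of stimulated iNOS KO lay with its group. Ncf4 was 14.8% ± 0.0981 of the summed TPM in stimulated wildtype and 7.73% ± 0.621 in stimulated iNOS KO. The summed TPM itself was 4332 to 4409 in stimulated wildtype and 4165 to 4268 in stimulated iNOS KO, ranges that lay near each other without overlap. This ratio was chosen after its values were seen and was not tested.

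**Figure D3:**
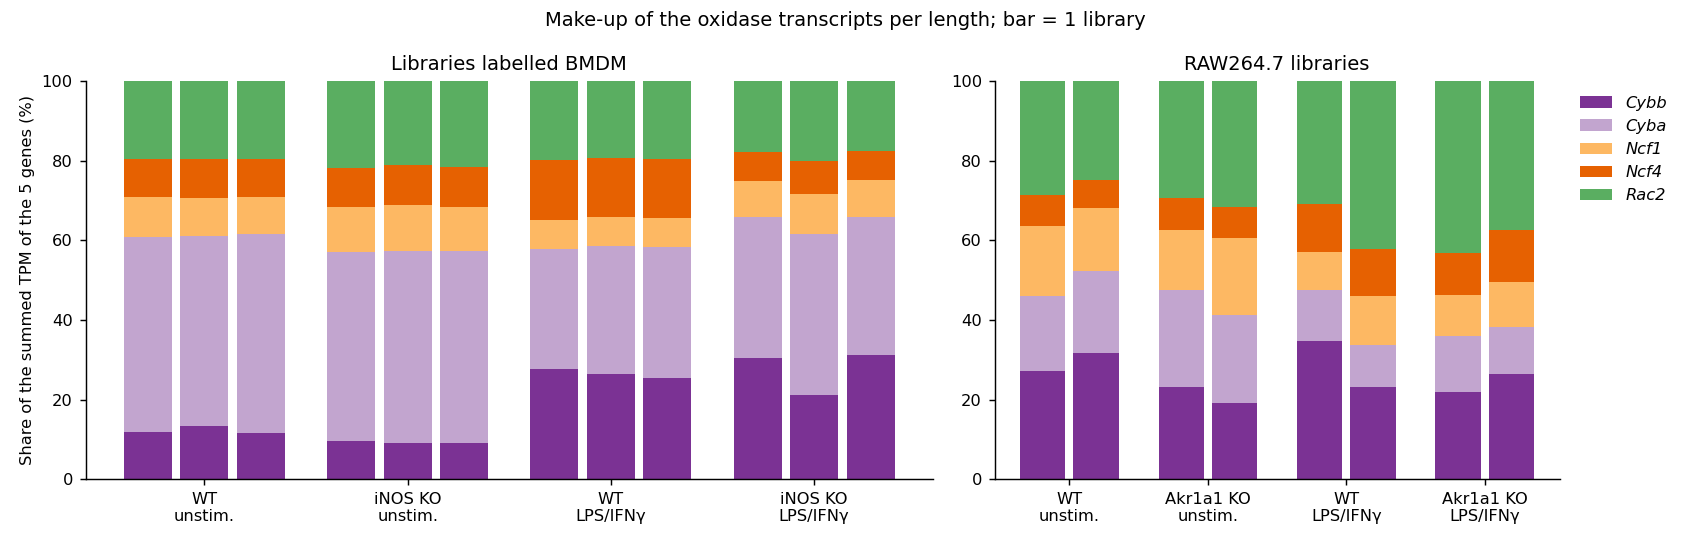
Share of the summed TPM of the 5 oxidase genes (percent, linear axis from 0 to 100) taken by each gene; each bar is 1 library, grouped by genotype and stimulation. The Cybb share is larger in stimulated than in unstimulated libraries labelled BMDM, and the Ncf4 share is 14.8% on average in stimulated wildtype against 7.73% in stimulated iNOS KO.

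In RAW264.7 cells stimulation raised Ncf4 and Rac2 in both genotypes, and no oxidase gene was called between Akr1a1 KO and wildtype. The stimulation calls, 2 of 5 higher and 0 lower in each genotype, stand beside 18.5% of all tested genes higher and 19.2% lower in wildtype, and 19.8% higher and 19.4% lower in Akr1a1 KO. With 2 libraries per group the precision was lower: the common dispersion, edgeR's estimate of the squared variation between replicates, was 0.0522 against 0.00845 in the libraries labelled BMDM. Simulated counts for stimulated Akr1a1 KO against wildtype had 42 of 100 planted 2-fold and 93 of 100 planted 4-fold changes called by the same fit. DESeq2 called 74 and 98, with 51 unchanged genes called against 13 in edgeR. The planted genes spanned a wide range of counts, whereas each oxidase gene had at least 1025 in every library. These shares are therefore not those of the oxidase genes.

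Ncf4 was 83.6 and 88.1 CPM in unstimulated wildtype (A, B), 80.5 and 65.1 CPM in unstimulated Akr1a1 KO, 274 and 208 CPM in stimulated wildtype and 151 and 200 CPM in stimulated Akr1a1 KO. It rose by 1.49 ± 0.19 in wildtype (adjusted p = 0.00051) and by 1.27 ± 0.19 in Akr1a1 KO (adjusted p = 0.0011), and every stimulated library was above every unstimulated one. Rac2 was 478 and 481 CPM in unstimulated wildtype, 449 and 413 CPM in unstimulated Akr1a1 KO, 1058 and 1138 CPM in stimulated wildtype and 935 and 888 CPM in stimulated Akr1a1 KO. Rac2 rose by 1.195 ± 0.13 (adjusted p = 0.000197) and 1.08 ± 0.13 (adjusted p = 0.00031). Neither gene was called between Akr1a1 KO and wildtype in either state.

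Cybb had the largest standard error of the 5 genes in RAW264.7. It was 852 and 1146 CPM in unstimulated wildtype, 665 and 466 CPM in unstimulated Akr1a1 KO, 2243 and 1180 CPM in stimulated wildtype and 892 and 1174 CPM in stimulated Akr1a1 KO. Replicate A of stimulated wildtype was well above replicate B, which was close to unstimulated wildtype replicate B. The stimulation difference was 0.78 ± 0.32 in wildtype (95% interval 0.033 to 1.52, adjusted p = 0.0942) and 0.87 ± 0.32 in Akr1a1 KO (0.12 to 1.62, adjusted p = 0.0650), and in DESeq2 it passed in both (adjusted p = 0.0184 and 0.0116). Without stimulated wildtype replicate B the wildtype difference was 1.22 (adjusted p = 0.01001), and without replicate A it was 0.31 (adjusted p = 0.41). The Akr1a1 KO difference was also called without either stimulated wildtype library, which enter through the shared spread (adjusted p = 0.0155 and 0.0165), and ranged from 0.64 to 1.15 with 1 library left out.

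Cyba was 105 and 133 CPM in unstimulated wildtype, 125 and 96.7 CPM in unstimulated Akr1a1 KO, 148 and 95.3 CPM in stimulated wildtype and 102 and 94.2 CPM in stimulated Akr1a1 KO. The stimulated and unstimulated libraries of wildtype overlapped, and the stimulation difference was 0.033 ± 0.23 in wildtype and -0.17 ± 0.23 in Akr1a1 KO (adjusted p = 0.93 and 0.58). Ncf1 was 346 and 360 CPM in unstimulated wildtype, 274 and 296 CPM in unstimulated Akr1a1 KO, 381 and 394 CPM in stimulated wildtype and 264 and 313 CPM in stimulated Akr1a1 KO. Its stimulation difference was 0.13 ± 0.13 in wildtype (95% interval -0.17 to 0.43) and 0.019 ± 0.13 in Akr1a1 KO (-0.28 to 0.32). Gtf2ird2, which overlaps Ncf1, had 6.001% to 10.7% of the Ncf1 counts in RAW264.7.

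**Figure D4:**
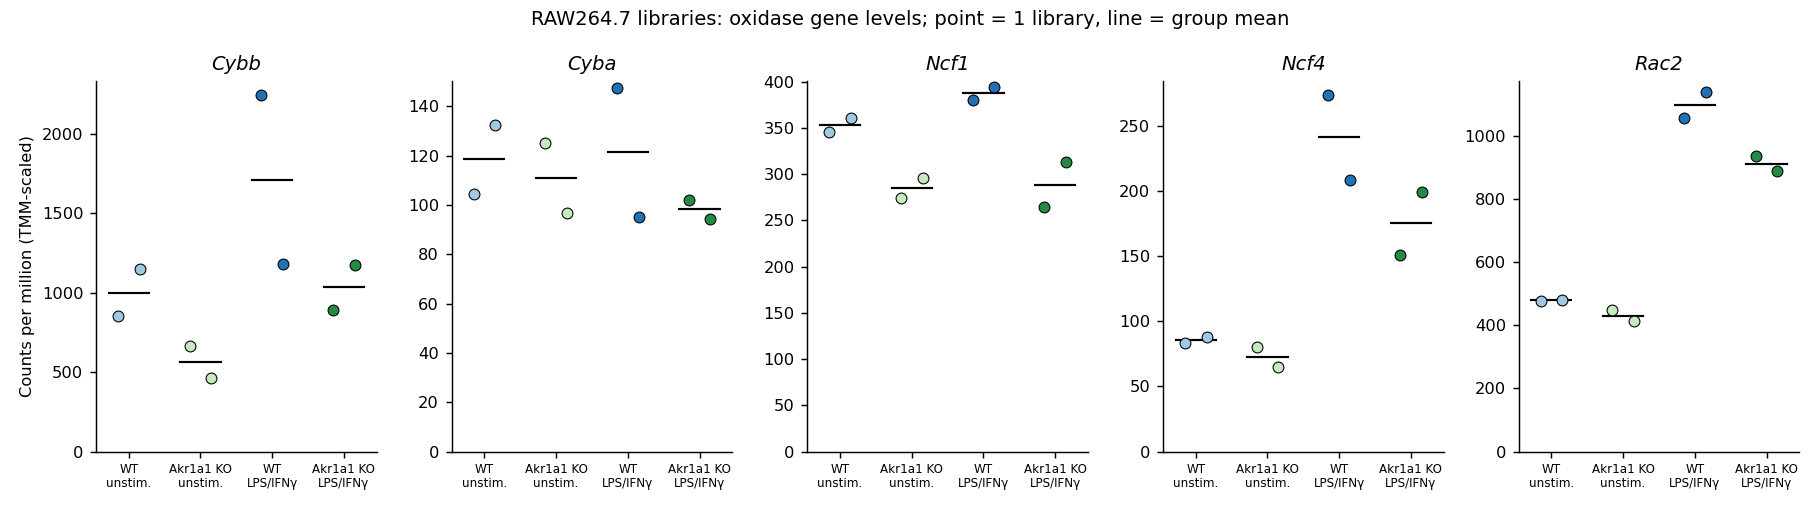
CPM (TMM-scaled, linear axes from 0) of the 5 oxidase genes in RAW264.7; each point is 1 library and each line a group mean (n = 2). Ncf4 and Rac2 are higher in every stimulated library than in every unstimulated one, and none of the 5 genes was called between Akr1a1 KO and wildtype.

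Between Akr1a1 KO and wildtype, 0 of 5 genes were called in either state. In unstimulated cells 0.23% of all tested genes were called higher and 0.353% lower, and in stimulated cells 0.0869% and 0.199%, so few calls of any kind were made. All 5 fold changes were negative in both states, with a median of -0.24 in unstimulated and -0.42 in stimulated cells beside -0.023 and 0.0051 over all tested genes. In the fit of all 8 libraries the largest was that of Cybb, at -0.82 ± 0.32 (95% interval -1.57 to -0.077, adjusted p = 0.56) in unstimulated and -0.73 ± 0.32 (-1.47 to 0.015, adjusted p = 0.46) in stimulated cells. With 1 library left out the Cybb difference ranged from -1.10 to -0.59 in unstimulated cells and from -1.13 (without stimulated wildtype replicate B) to -0.22 (without replicate A) in stimulated cells, so its size there rests on these libraries. Without a filter on low counts Cybb was called in both states (adjusted p = 0.000294 and 0.00312). Ncf1 was -0.31 ± 0.13 (adjusted p = 0.60) and -0.42 ± 0.13 (adjusted p = 0.29). At an unadjusted p under 0.05, 2 of the 5 genes passed in each state (Cybb and Ncf1 in unstimulated, Ncf1 and Ncf4 in stimulated cells), and DESeq2 called 0 in unstimulated cells and 1, Ncf1, in stimulated cells. The summed macrophage markers were also lower, at 3282 to 3476 CPM in unstimulated Akr1a1 KO against 4339 to 4870 CPM in wildtype. After stimulation they were at 4949 to 8813 against 11795 to 12014 CPM. Of 7 tested markers, 1 was called lower and 0 higher in each state. Lyz2, the largest, was 1611 and 4682 CPM in stimulated Akr1a1 KO against 6651 and 7101 CPM in wildtype. Mean Adgre1 and Fcgr1 were higher in stimulated Akr1a1 KO (538 against 401 and 226 against 128 CPM). Mean Cd68 was higher in unstimulated Akr1a1 KO (706 against 586 CPM). In each state the other tested markers had lower means. The part of the markers in these values was not tested. The interaction was called for 0 of 5 genes (0 at an unadjusted p under 0.05, and 0 in DESeq2), beside 0.00511% of all tested genes positive and 0.0153% negative.

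In RAW264.7 Cybc1 rose by 1.27 ± 0.18 and 1.53 ± 0.18 (adjusted p = 0.00086 and 0.00032). Per length the order in unstimulated wildtype RAW264.7 was Cybb and Rac2 (555 to 694 and 545 to 583 TPM, overlapping), Cyba and Ncf1 (381 to 448 and 346 to 358 TPM) and Ncf4 (153 to 157 TPM). The TPM ratio of Ncf4 to Ncf1 was 0.438 to 0.444 in unstimulated and 0.958 to 1.31 in stimulated wildtype, and 0.399 to 0.533 and 1.04 to 1.15 in Akr1a1 KO. It was higher after stimulation in both RAW264.7 genotypes, as it was in wildtype libraries labelled BMDM.

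RefSeq promoter sequences are shown from 250 bases before to 30 bases from the start of transcription on (build GRCm38.p6). They cover Cybb, Cyba and Ncf1, the 3 members with an entry in the RefSeq table used here. Ncf4 and Rac2 had no entry. Capitals mark matches, on either strand, to GAGGAA (the core bound by PU.1, a myeloid factor), GAAANNGAAA (the core bound by interferon regulatory factors), TTCNNNGAA (a palindrome of IFNγ-responsive genes) and the NF-kB motif. The sequences run 5′ to 3′ on the strand of the gene, which is the minus strand for all 3: Cybb chrX:9469295-9469574, Cyba chr8:122432911-122433190 and Ncf1 chr5:134229596-134229875.
Cybb: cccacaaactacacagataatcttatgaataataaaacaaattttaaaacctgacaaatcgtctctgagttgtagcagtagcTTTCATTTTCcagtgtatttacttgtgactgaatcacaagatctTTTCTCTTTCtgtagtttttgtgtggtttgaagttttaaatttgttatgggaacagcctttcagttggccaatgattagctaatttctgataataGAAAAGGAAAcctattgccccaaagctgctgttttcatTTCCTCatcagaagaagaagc
Cyba: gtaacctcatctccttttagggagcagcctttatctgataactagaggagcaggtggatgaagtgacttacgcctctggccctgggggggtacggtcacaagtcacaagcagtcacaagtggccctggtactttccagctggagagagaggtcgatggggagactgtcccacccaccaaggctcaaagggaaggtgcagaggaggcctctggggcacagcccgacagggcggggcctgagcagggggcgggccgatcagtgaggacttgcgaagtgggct
Ncf1: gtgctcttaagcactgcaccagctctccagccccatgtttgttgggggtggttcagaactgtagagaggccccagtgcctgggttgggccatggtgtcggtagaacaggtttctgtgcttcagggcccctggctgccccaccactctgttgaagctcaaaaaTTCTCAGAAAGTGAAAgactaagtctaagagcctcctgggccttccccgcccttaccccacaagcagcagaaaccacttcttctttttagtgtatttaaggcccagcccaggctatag

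Counted from 1 at the first transcribed base, with -1 before it, the Cybb promoter held GAAANNGAAA at 3 places (-168 to -159 and -124 to -115 on the opposite strand, -29 to -20 on the strand of the gene) and GAGGAA once (10 to 15, opposite strand). The Ncf1 promoter held GAAANNGAAA at -82 to -73 and TTCNNNGAA at -88 to -80, which overlap by 3 bases. The Cyba promoter held none of the 4 motifs, and no NF-kB match lay in any of the 3 windows. Of 32851 windows of the same length in the table, 3.28% held GAAANNGAAA, 26.0% GAGGAA, 7.83% TTCNNNGAA and 7.94% the NF-kB motif. A match describes the letters and is not a binding site.

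The starts that the count tables list for the 5 genes differ from those of the GRCm38 gene annotation for all 5, although the submitters' processing notes name mm10, and the tables name no build. The positions given for the genes above are those of the tables, and only the promoters are in GRCm38.p6. In the tables Ncf4 and Rac2 lie on chromosome 15, with 296586 bases and 10 protein-coding genes between them. Of these 10, 8 were tested. In stimulated iNOS KO 3 were lower than in wildtype and 1 higher, beside 24.2% of all tested genes in each direction. The lower ones were Csf2rb2 (-1.84, adjusted p = 4.8e-13) and Csf2rb (-1.51, adjusted p = 1.1e-11), encoding near-identical beta chains of cytokine receptors whose reads may be split between them, and Tst (-1.72, adjusted p = 1.0e-05), encoding the mitochondrial sulfurtransferase rhodanese. The higher one was C1qtnf6 (3.38, adjusted p = 1.2e-09). In unstimulated iNOS KO 2 of the 8 were already lower, Csf2rb (-0.28) and Tst (-1.17), and 1 higher, C1qtnf6 (2.41). Over all tested genes 4.09% were lower and 1.88% higher there. These neighbours were looked at after the values of Ncf4 were seen.

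Most tested transcription factors of myeloid and interferon genes were higher with stimulation. Of 8 listed, 6 were tested (Hoxa9 and Hoxa10 were under the minimum), and in wildtype libraries labelled BMDM 5 were higher and 1 lower (median log2 difference 2.70). The lower one was Spi1, which encodes PU.1 (-0.25 ± 0.062, adjusted p = 0.0019). In iNOS KO all 6 were higher, also with a median of 2.70, and Spi1 was higher by 0.22 ± 0.062 (adjusted p = 0.0058). Irf1, a transcription factor induced by interferon, rose most, by 7.34 ± 0.115 in wildtype and 6.91 ± 0.11 in iNOS KO. Between the stimulated genotypes 2 were higher and 3 lower in iNOS KO. Irf8, a partner of PU.1 at the Cybb gene, was higher by 0.999 ± 0.072 (adjusted p = 4.5e-09) and Spi1 by 0.285 ± 0.062 (adjusted p = 0.0010), while Irf1 (-0.795 ± 0.084) and Cebpb (-0.66 ± 0.078) were lower. In RAW264.7 all 6 were higher with stimulation in each genotype (medians 2.12 and 1.92) and none was called between Akr1a1 KO and wildtype. Over all tested genes labelled BMDM, stimulation called 32.4% higher and 28.5% lower in wildtype, and 27.3% and 24.6% in iNOS KO. Between the stimulated genotypes there, 24.2% were called in each direction. Stimulation in RAW264.7 called 18.5% higher and 19.2% lower in wildtype, and 19.8% and 19.4% in Akr1a1 KO.

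Of 17 listed genes of oxidase assembly and regulation, 15 were tested in the libraries labelled BMDM. Stimulation called 6 higher and 4 lower in wildtype (median -0.069) and 10 higher and 2 lower in iNOS KO (median 0.30). Over all tested genes 32.4% were higher and 28.5% lower in wildtype, and 27.3% and 24.6% in iNOS KO. S100a8, whose protein joins with that of S100a9 in calprotectin, rose by 5.62 ± 0.22 in wildtype, and Hvcn1, the proton channel that balances the charge moved by the oxidase, rose by 2.55 ± 0.17. Pik3cd, a phosphoinositide 3-kinase subunit (-1.44 ± 0.086), and the kinase Pak1 (-1.40 ± 0.065) were lower. Between the stimulated genotypes 6 were higher and 4 lower in iNOS KO, beside 24.2% of all tested genes in each direction. The largest were Coro1a, a coronin that binds actin (1.31 ± 0.080), Pik3cd (1.08 ± 0.086), the GTPase inhibitor Arhgdib (0.86 ± 0.064) and Pak1 (0.77 ± 0.065). In unstimulated cells 3 were lower in iNOS KO and none higher, beside 4.09% of all tested genes lower and 1.88% higher. The 3 were Hvcn1 (-1.31 ± 0.22), the kinase Prkcd (-0.32 ± 0.067) and Coro1a (-0.32 ± 0.078).

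In RAW264.7, 16 of the 17 were tested, and stimulation called 4 higher and 5 lower in wildtype and 4 higher and 4 lower in Akr1a1 KO (medians 0.27 and -0.018). Over all tested genes 18.5% were higher and 19.2% lower in wildtype, and 19.8% and 19.4% in Akr1a1 KO. Vav1, an exchange factor that loads Rac with GTP, rose by 2.13 ± 0.14 and 2.30 ± 0.14. Hvcn1, higher after stimulation in the libraries labelled BMDM, differed by -1.845 ± 0.55 in wildtype RAW264.7 (adjusted p = 0.0302). Its level there was very low, at 0.338 to 0.595 CPM in stimulated and 1.655 to 1.671 CPM in unstimulated libraries. S100a8 was also on the list of 9 neutrophil markers, whose summed level was 37.3 to 64.7 CPM in stimulated against 4.44 to 5.93 CPM in unstimulated wildtype labelled BMDM, and 128 to 146 against 6.04 to 9.59 CPM in wildtype RAW264.7. Almost all of the stimulated sum was S100a8, with means of 49.3 and 132 CPM. Mean Csf3r was lower after stimulation, at 1.84 against 4.22 CPM and at 3.93 against 7.39 CPM. Of 4 markers tested in wildtype labelled BMDM 3 were called higher and 1 lower. In wildtype RAW264.7 1 of 5 was called higher and 0 lower. S100a9, the partner of S100a8, had 3 and 2 counts in total in the 2 experiments. The part of these levels in the oxidase results was not tested.

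Other NADPH oxidases were almost without counts. Of 9 listed genes of the Nox1, Nox3, Nox4 and Duox enzymes and their partners, 4 were tested in the first experiment (libraries labelled BMDM), 3 in the second (RAW264.7), and none of the 9 exceeded 4.49 CPM in any library. Nox4 and Duox1 had no counts in any of the 20 libraries, whereas Cybb was at 326 CPM or more in each. Nox3, the oxidase of the inner ear, was called higher with stimulation in both genotypes labelled BMDM and in Akr1a1 KO RAW264.7, from unstimulated libraries of 0 to 3 counts, so no fold is given.

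Of 8 enzymes that take superoxide and hydrogen peroxide further, 7 were tested in each experiment. Stimulation called 6 higher and 1 lower in wildtype labelled BMDM (median 2.14) and 4 higher and 1 lower in iNOS KO (median 0.86). Prdx1, a peroxiredoxin that removes peroxide, rose by 3.60 ± 0.0585 in wildtype and 2.76 ± 0.056 in iNOS KO, and Sod2, the mitochondrial superoxide dismutase, by 2.14 ± 0.064 and 3.40 ± 0.0675. Sod1, the cytosolic dismutase, differed by -1.12 ± 0.085 and -0.34 ± 0.083. Between the stimulated genotypes 3 were higher and 3 lower in iNOS KO, the largest being Prdx1 (-0.92 ± 0.053), Sod2 (0.90 ± 0.062), the peroxiredoxin Prdx5 (0.80 ± 0.079) and Sod1 (0.74 ± 0.085). In RAW264.7 stimulation called 4 higher and 1 lower in wildtype and 5 higher and 1 lower in Akr1a1 KO, and none was called between the genotypes. The shares of all tested genes called with stimulation were 32.4% higher and 28.5% lower in wildtype labelled BMDM, and 27.3% and 24.6% in iNOS KO. They were 18.5% and 19.2% in wildtype RAW264.7, and 19.8% and 19.4% in Akr1a1 KO. Between stimulated iNOS KO and wildtype the share was 24.2% in each direction.

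For each of the 5 genes the 3 protein-coding genes with the most alike pattern were found among 8208 genes with a mean log2 CPM above 3 in both experiments, by the smaller of the 2 Pearson correlations over the 12 libraries labelled BMDM and the 8 RAW264.7 libraries. For Rac2 they were Crlf2 (0.999 and 0.996), Zc3h12a (0.994 and 0.992) and Cd52 (0.994 and 0.992). For Ncf4 they were Lrpap1 (0.992 and 0.984), Spata6 (0.981 and 0.985) and Mcoln1 (0.981 and 0.982). The highest smaller value was 0.922 for Cybb (Pstpip2), 0.951 for Ncf1 (Elmo2) and 0.843 for Cyba (Ndufs4), so Cyba had the least close neighbour. Among the members themselves, Ncf4 and Rac2 were at 0.927 and 0.965, and Cyba and Rac2 at 0.948 over the libraries labelled BMDM but -0.083 over RAW264.7. These correlations describe libraries that share groups and a strong stimulation difference.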

How the data were processed

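The members and gene lists were chosen with earlier results of these data known. The deposited tables hold raw read counts per gene, which the authors made from poly A-selected libraries; the submitters' processing notes name CASAVA, STAR and mm10, and strand use is not given in the sources used here. Here each experiment was fitted apart with edgeR 4.0.16 in R 4.3.3 (TMM scaling, quasi-likelihood F test, at least 10 counts in total, 1 mean per group, Benjamini-Hochberg adjustment over all tested genes, called under 0.05). SE is the fold change over the root of F. TPM used the listed gene lengths. No column was left unmatched to a sample. Some listed genes are not reported here. Named genes were the 5 members, Nos2 and Akr1a1, at most the 4 largest called changes per list and comparison, and the 3 most alike genes per member. Alternatives were DESeq2 1.42.0, its size factors, other filters, a fold limit, the replicate block, only the groups compared and each library left out. In the self-test on simulated data, edgeR called 98 of 100 planted 2-fold and 100 of 100 planted 4-fold changes for stimulated iNOS KO against wildtype. Same-lettered libraries had correlations of their deviations from group means of -0.517 to 0.497 (libraries labelled BMDM) and -0.165 to 0.438 (RAW264.7), so letters were not taken as pairs. Stimulated and unstimulated iNOS KO were the exception among the pairs of BMDM groups, with all 3 over 0.1 (0.404, 0.497 and 0.121), and there the block left the calls of all 5 genes unchanged. In RAW264.7 the same-lettered stimulated and unstimulated libraries were at 0.438 in wildtype and 0.103 in Akr1a1 KO. The block fits the same letter effect in both genotypes, so a source shared within 1 genotype was not modelled.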

Additional observations from a re-analysis of the deposited data

Results flagged for a closer look

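The stimulation response of 4 oxidase genes differed between wildtype and iNOS KO libraries labelled BMDM by edgeR's test of the interaction itself. The log2 difference (iNOS KO response minus wildtype response) was 0.72 for Cybb, 0.50 for Cyba, 0.41 for Ncf1 and -0.73 for Ncf4. Each remained called when any 1 library was left out, where the lowest and highest values were 0.62 and 0.87 for Cybb, 0.42 and 0.55 for Cyba, 0.35 and 0.46 for Ncf1, and -0.81 and -0.70 for Ncf4. The cause was not tested.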

How the results depend on the processing

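The number of oxidase genes called kept its main value or stayed within 1.5 times of it under most alternatives, with these exceptions. Requiring an absolute log2 fold change over 1 as well left 0 of 3 called for unstimulated iNOS KO, 1 of 2 for stimulated iNOS KO, 3 of 5 for stimulation in each genotype labelled BMDM and 0 of 4 for their interaction. Without a filter on low counts 1 gene, Cybb, was called for Akr1a1 KO in each state (0 with the filter), and DESeq2 called 1, Ncf1, in stimulated Akr1a1 KO. With 1 library left out the count ranged from 1 to 4 for unstimulated and from 2 to 4 for stimulated iNOS KO. The causes of these changes were not tested. The replicate block, by letters of which no label says that they mark a shared source, left all 10 counts as they were (3 for unstimulated and 2 for stimulated iNOS KO, for example), and all genes called for stimulated iNOS KO went from 9040 to 8858. Fold changes that changed sign were not called in the main fit. The stimulated iNOS KO difference of Cybb was 0.069 with only the groups compared and ranged from -0.11 to 0.15 with 1 library left out. The Rac2 interaction of the libraries labelled BMDM was -0.0026 under edgeR's filterByExpr and ranged from -0.024 to 0.074 with 1 library left out. In RAW264.7 the ranges with 1 library left out were -0.30 to 0.082 (unstimulated Akr1a1 KO), -0.60 to 0.018 (stimulated Akr1a1 KO), -0.25 to 0.37 (wildtype stimulation), -0.35 to 0.023 (Akr1a1 KO stimulation) and -0.54 to 0.079 (interaction) for Cyba, -0.094 to 0.13 for the Akr1a1 KO stimulation of Ncf1 and -0.35 to 0.56 for the interaction of Cybb. A group left with 1 library was assumed to vary like the others. Of the single-gene values under alternatives, 610 kept direction and call, 16 passed the threshold and 7 lost it, and 17 changed sign. Each member had at least 1025 counts in every library, and the 2 libraries per group of RAW264.7 limit the precision there.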
